A study of Mus musculus with 8 samples.

Results

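The cytochrome P450 genes examined here were the 52 genes of that superfamily that remained among the 71 P450 genes of the authors' comparison table after 12 Cyp2c genes and 7 genes of sterol, bile acid and fatty acid metabolism (Cyp4a10, Cyp4a14, Cyp7a1, Cyp7b1, Cyp8b1, Cyp27a1 and Cyp51) were set aside. They were grouped by family number into family 1 (3 genes), family 2 (23), family 3 (5), family 4 (13) and other families (8). Their transcripts were measured by polyadenylated RNA sequencing of whole liver from male C57BL/6J mice, labelled C57BL/6 on the samples. All mice ate a diet of fructose, palmitate and cholesterol for 16 weeks, which provokes steatohepatitis, an inflamed and scarred fatty liver. The antiCD47 group was given an antibody against CD47 by intraperitoneal injection (200 µg per mouse) between weeks 8 and 16, and the IgG group was given IgG over the same weeks; neither group had a stated genetic change, and ages and the isotype of the IgG are not given in the sources used here. CD47 is the surface protein that restrains engulfment by macrophages through the receptor SIRPα. The series describes 7 to 8 mice per group, and 4 libraries of each group were analysed, antiCD47 1 to 4 and IgG 1 to 4. Nothing in the labels ties a library to a particular mouse, so the p-values measure the spread between these libraries.

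Cytochrome P450 enzymes carry a heme group and insert an oxygen atom into their substrates, mostly drugs and foreign chemicals in families 1, 2 and 3, fatty acids and eicosanoids in family 4, and steroids, sterols, retinoids or vitamin D in the others. Most sit in the endoplasmic reticulum of hepatocytes and take electrons from the reductase encoded by Por. Their genes are driven by hepatocyte factors such as HNF4α and by the ligand-activated receptors AHR, CAR, PXR and PPARα, several are zoned along the liver lobule, and many hepatic P450 transcripts are known to be lowered by inflammatory cytokines.

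Total counts lay between 43691472 and 55477484 per library, and no 2 libraries of a group matched within sampling noise. Levels are given as CPM, the share of a library's counts, in parts per 1e+06, after scaling by the trimmed mean of M values (TMM). Levels are ranked between genes as RPKM, the CPM per kilobase of the gene's longest coding transcript. Hepatocyte markers were present at high levels in every library (summed over 6 markers, 60140 to 72386 CPM in antiCD47 and 56845 to 61722 CPM in IgG). In bulk liver, fewer cells of a type and less RNA per cell cannot be told apart.

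By RPKM the P450 genes spanned several orders of magnitude. Cyp2e1, the ethanol-oxidising enzyme of pericentral hepatocytes, was the highest with 4430 ± 284 RPKM in antiCD47 and 4289 ± 167 RPKM in IgG (SD, n = 4 each). Cyp3a11, the main drug-oxidising P450 of family 3 in mouse liver, followed with 1638 ± 315 RPKM in antiCD47 and 1455 ± 79.8 RPKM in IgG. Next came Cyp2a5, Cyp2d9, Cyp2d26, Cyp2a12, Cyp2f2, Cyp2d10 and Cyp2j5, all of family 2. At the other end stood Cyp4f39, with 0.111 ± 0.0365 RPKM in antiCD47 and 0.0526 ± 0.0181 RPKM in IgG. No length was available for Cyp2d13.

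**Figure D1:**
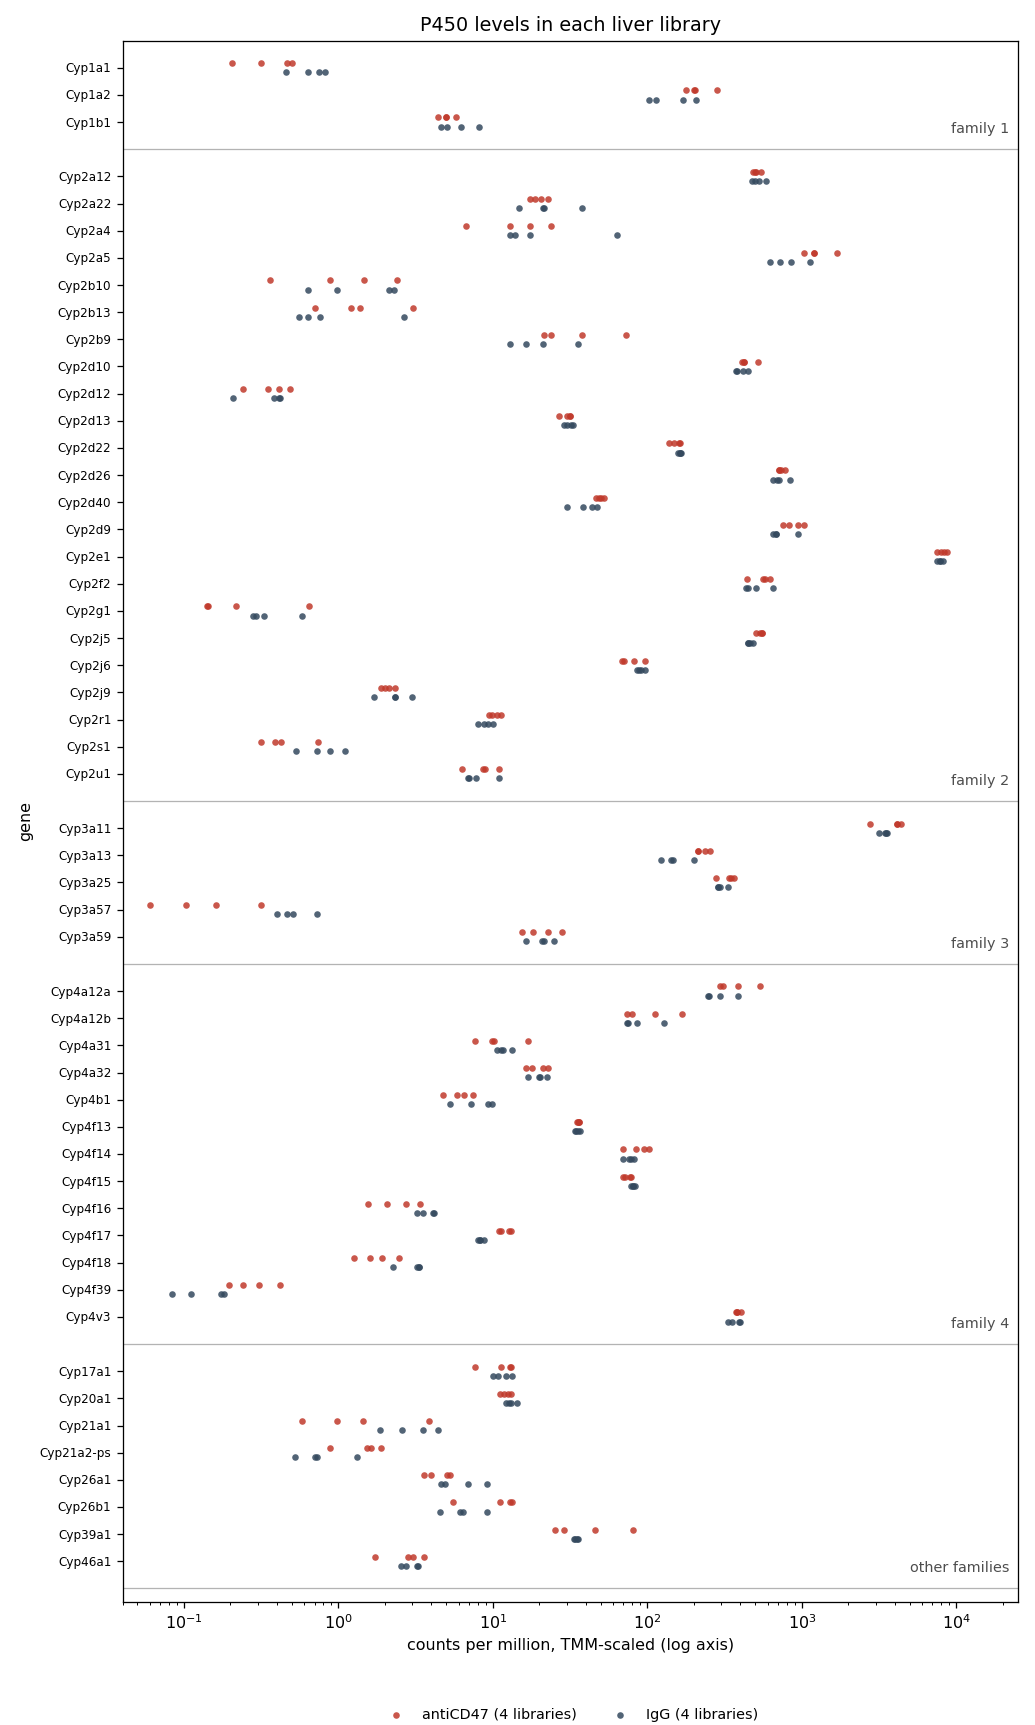
Level of each of the 52 P450 genes in each library (CPM, log axis), with antiCD47 points drawn just above IgG points and genes in alphabetical order within families. The groups overlap for most genes, among them Cyp2e1, and lie apart for Cyp3a57, Cyp3a13, Cyp4f17, Cyp4f39 and Cyp2j5.

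The summed signal of the 52 P450 genes differed little in size between the groups, and few single genes passed the test. All 52 genes together took 1.81 ± 0.0218% of all counts in antiCD47 and 1.87 ± 0.0346% in IgG (SD, n = 4 each). Of these counts 43.4% belonged to Cyp2e1 and 19.6% to Cyp3a11. After TMM scaling the summed level ran the other way, from 18600 to 20119 CPM in the antiCD47 libraries and from 16769 to 18321 CPM in the IgG libraries. On that scale the groups did not overlap, so the direction of the sum depends on the scaling. All 52 genes passed the filter on low counts and were tested. An adjusted p under 0.05 (edgeR quasi-likelihood test, two-sided, Benjamini-Hochberg adjustment over 15472 genes) was reached by 3 of 52 genes (5.77%), against 10.8% of all genes tested. Cyp4f17 and Cyp3a13 rose and Cyp3a57 fell in antiCD47. In the same test 5.44% of all genes rose and 5.4% fell. With library totals alone as the scaling, 2 of the 52 genes rose and 6 fell, and over all genes 428 rose and 3153 fell.

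The median log2 fold change, antiCD47 over IgG, was 0.02 over the 52 genes and -0.01 over all genes tested, with 28 positive and 24 negative values among the 52 (17 and 35 with library totals alone). By family the medians were -0.26 for family 1, 0.05 for family 2, 0.14 for family 3, 0.02 for family 4 and -0.05 for the others. The 12 Cyp2c genes, which were set aside, had a median of 0.48, and 5 of them rose. For 34 of the 52 genes the 95% interval of the fold change lay within 2-fold in either direction. Over all genes tested, this held for 11852 of 15472. The libraries of the groups did not overlap for 5 of 52 genes (9.62%), against 19.6% of all genes tested (9.51% higher and 10.1% lower). Those 5 were Cyp2j5, Cyp3a13, Cyp4f17 and Cyp4f39, higher in antiCD47, and Cyp3a57, lower. An unadjusted p under 0.05 was seen for 15 of 52 genes, 9 higher and 6 lower, against 32.5% of all genes. An adjusted p under 0.05 was listed for 7 of the 52 genes in the authors' deposited table, against 18.4% of its 14432 genes. All 52 signs in the authors' deposited table were the same as here. Which group that table takes as its base is not given.

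**Figure D2:**
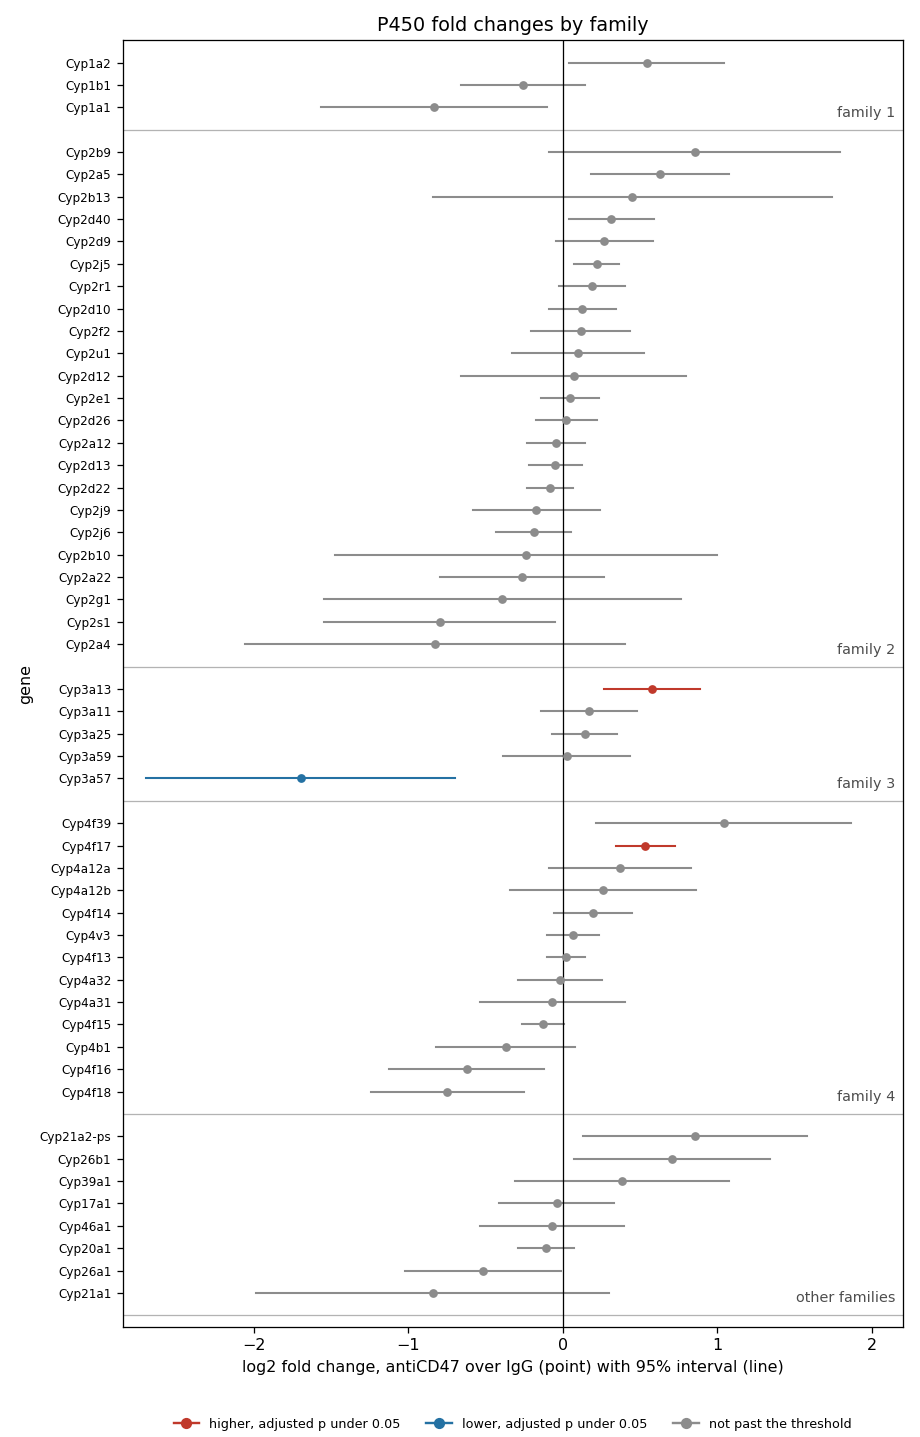
Log2 fold change of each P450 gene, antiCD47 over IgG (point), with its 95% interval (line), by family. Cyp3a13 and Cyp4f17 (red) and Cyp3a57 (blue) have an adjusted p under 0.05, and the longest lines belong to genes with few counts or with uneven libraries, such as Cyp3a57, Cyp2b13 and Cyp2a4.

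The Cyp3a genes, whose enzymes oxidise steroids and many drugs, held 2 of the 3 changed genes, 1 in each direction. These were 40% of only 5 Cyp3a genes, against 10.8% of all genes tested. Cyp3a13 had 212, 234, 255 and 214 CPM in antiCD47 1 to 4, against 147, 202, 142 and 123 CPM in IgG 1 to 4. Every antiCD47 library stood above every IgG library, with IgG 2 closest to the antiCD47 values. Its log2 fold change was 0.58 ± 0.14 (SE; 95% interval 0.26 to 0.89; edgeR adjusted p = 0.0339), a 1.49-fold higher level. Cyp3a57, a gene of the same subfamily near the floor of detection, was covered by 16, 3, 5 and 7 counts in antiCD47 1 to 4 and by 19, 28, 39 and 27 counts in IgG 1 to 4. These correspond to 0.315, 0.0604, 0.102 and 0.162 CPM in antiCD47, against 0.400, 0.509, 0.726 and 0.467 CPM in IgG. The groups did not overlap, and antiCD47 1 lay closest to the IgG libraries. Cyp3a57 fell by 1.70 ± 0.45 on the log2 scale (SE; edgeR adjusted p = 0.0423).

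Cyp3a11 had 2748, 4112, 4377 and 4119 CPM in antiCD47 1 to 4, against 3142, 3567, 3439 and 3497 CPM in IgG 1 to 4. The antiCD47 1 library was below all IgG libraries and the other 3 antiCD47 libraries were above them. The log2 fold change of Cyp3a11 was 0.17 ± 0.14 (SE; 95% interval -0.14 to 0.48; edgeR adjusted p = 0.418), and without antiCD47 1 it was 0.30 and past the threshold. Cyp3a25 (log2 0.14, edgeR adjusted p = 0.318) and Cyp3a59 (0.02, edgeR adjusted p = 0.940) did not pass. Cyp3a13 is distinct in sequence, with 0.239% of its 31-base words found in transcripts of any other gene, while Cyp3a57 shares 22.6% of its words with other genes, most of them with Cyp3a59. Reads of the low-count gene Cyp3a57 are therefore assigned with less certainty.

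The 250 bases upstream of the start of these oppositely changed genes are shown, since nuclear receptors such as PXR act on Cyp3a promoters. Capitals mark AGGTCA, a core element bound by nuclear receptors, on either strand. The sequences are from RefSeq (GRCm38.p6), Cyp3a13 on the minus strand at chr5:137921620-137921869 and Cyp3a57 on the plus strand at chr5:145345019-145345268.
Cyp3a13: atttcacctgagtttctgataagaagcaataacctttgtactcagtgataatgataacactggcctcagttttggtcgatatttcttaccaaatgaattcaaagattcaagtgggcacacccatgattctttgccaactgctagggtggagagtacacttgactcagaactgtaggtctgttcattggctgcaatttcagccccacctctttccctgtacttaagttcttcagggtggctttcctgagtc
Cyp3a57: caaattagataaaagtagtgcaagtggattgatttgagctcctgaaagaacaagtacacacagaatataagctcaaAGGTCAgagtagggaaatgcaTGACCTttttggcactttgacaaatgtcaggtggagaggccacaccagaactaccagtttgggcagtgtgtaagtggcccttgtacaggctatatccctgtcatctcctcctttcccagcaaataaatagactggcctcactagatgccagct
The window of Cyp3a57 holds 2 such elements, as do those of Cyp3a25 and Cyp3a59. That of Cyp3a11 holds 1 and that of Cyp3a13 has no AGGTCA. Of the 39 P450 genes with a promoter in the table, 8 (20.5%) hold AGGTCA, against 13.8% of 27025 genes. TATAAA, the core of the TATA box, was found in 15 of the 39 (38.5%), against 13% of all genes. GCGTG, the core of the AHR response element, was found in 10 (25.6%), against 28.2%, and TTCNNNGAA, a palindrome of the kind bound by STAT factors, in 2 (5.13%), against 7.18%. Both strands were searched and overlapping motifs were each counted. A match describes these letters and is not a binding site.

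Family 4 held the P450 gene with the smallest p, Cyp4f17. Of its 7 Cyp4f genes 4 had an unadjusted p under 0.05, 2 in each direction, against 32.5% of all genes tested. Cyp4f enzymes hydroxylate leukotrienes and fatty acids at the far end of the chain, and 6 of these genes lie together on chromosome 17, with Cyp4f18 on chromosome 8. Cyp4f17 had 11.2, 13.1, 12.7 and 11.0 CPM in antiCD47 1 to 4, against 8.03, 8.28, 8.23 and 8.73 CPM in IgG 1 to 4. The groups were well apart and the IgG libraries were close together. Its log2 fold change was 0.53 ± 0.09 (SE; 95% interval 0.34 to 0.72; edgeR adjusted p = 0.0160), a 1.45-fold higher level. Cyp4f16, next to it on the chromosome, had 3.38, 1.55, 2.07 and 2.76 CPM in antiCD47 1 to 4, against 3.53, 3.24, 4.08 and 4.18 CPM in IgG 1 to 4. Only antiCD47 1 of the antiCD47 libraries reached the IgG range, and the log2 fold change was -0.62 ± 0.22 (SE; edgeR adjusted p = 0.0930). Cyp4f16 shares 26.7% of its 31-base words with other genes, most of them with Cyp4f37, while Cyp4f17 shares 11.7%. Reads of Cyp4f16 are therefore assigned with less certainty. As alternatives, DESeq2 called 3 family 4 genes, Cyp4f17, Cyp4f16 and Cyp4f18, and limma voom called Cyp4f17 alone. In the authors' deposited table Cyp4f17, Cyp4f18 and Cyp4f39 had an adjusted p under 0.05, and Cyp4f16 did not.

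Cyp4f18, whose mouse enzyme oxidises leukotrienes in neutrophils, had 2.46, 1.27, 1.90 and 1.60 CPM in antiCD47 1 to 4, against 2.25, 3.24, 3.33 and 3.34 CPM in IgG 1 to 4. The groups overlapped through antiCD47 1 and IgG 1, and the log2 fold change was -0.75 ± 0.22 (SE; edgeR adjusted p = 0.0569). Neutrophil markers moved the other way in the same libraries. All 6 of the listed markers rose, against 5.44% of all genes tested. Their summed levels were 14.3 to 32.3 CPM in antiCD47 and 6.15 to 8.49 CPM in IgG, and their part in the Cyp4f18 value was not tested. Cyp4f39, whose human counterpart hydroxylates very long fatty acids of skin lipids, was covered by 10, 12, 15 and 18 counts in antiCD47 1 to 4 and by 4, 10, 6 and 10 counts in IgG 1 to 4. Its CPM did not overlap between groups, and the log2 fold change was 1.04 ± 0.37 (SE; edgeR adjusted p = 0.0893). Cyp4f13, at 35.8 ± 0.574 CPM in antiCD47 and 35.3 ± 1.13 CPM in IgG (SD, n = 4 each), had a log2 fold change of 0.02 with a 95% interval from -0.10 to 0.14. Cyp4f14 (log2 0.20) and Cyp4f15 (-0.13), which act on leukotrienes, did not pass either (edgeR adjusted p = 0.253 and 0.173).

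**Figure D3:**
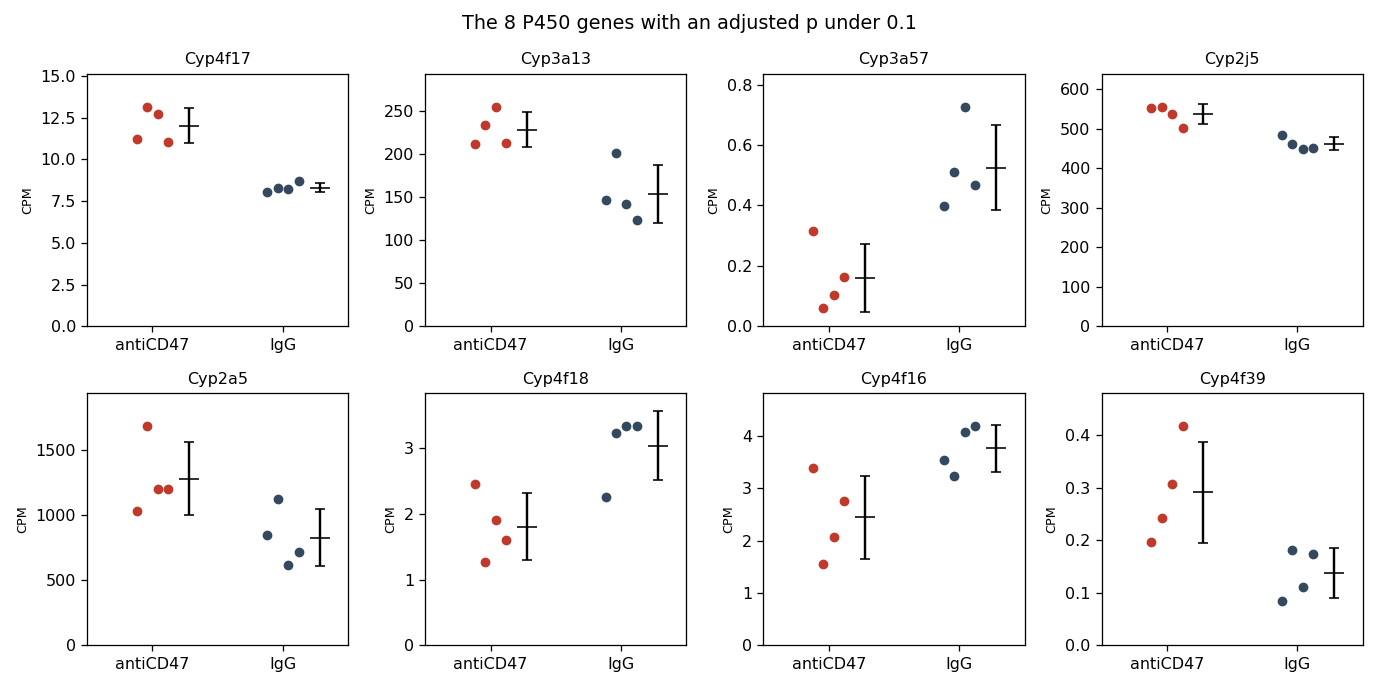
CPM of the 8 P450 genes with an adjusted p under 0.1, antiCD47 on the left and IgG on the right of each panel; points are libraries, and the bar is the mean with its SD. Cyp4f17, Cyp3a13, Cyp2j5 and Cyp4f39 lie higher in all 4 antiCD47 libraries and Cyp3a57 lower, while Cyp2a5, Cyp4f18 and Cyp4f16 overlap.

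The fatty acid hydroxylases of the Cyp4a subfamily and the remaining family 4 genes did not pass. Cyp4a12a, the androgen-dependent arachidonic acid hydroxylase of male mouse liver and kidney, had 535, 294, 389 and 307 CPM in antiCD47 1 to 4, against 386, 296, 246 and 252 CPM in IgG 1 to 4. The groups overlapped, with the number 1 library the highest in each, and the log2 fold change was 0.37 ± 0.21 (SE; edgeR adjusted p = 0.242). Its near copy Cyp4a12b, with which it shares 62.2% of its 31-base words, had a log2 fold change of 0.26 ± 0.27 (standard error; edgeR adjusted p = 0.528), so the split of reads between them is uncertain. Cyp4a31 and Cyp4a32 had log2 fold changes of -0.07 and -0.02. Cyp4v3, a fatty acid hydroxylase whose human counterpart is mutated in a retinal dystrophy, was at 384 ± 11.8 CPM in antiCD47 and 367 ± 30.8 CPM in IgG (SD, n = 4 each; log2 fold change 0.06, 95% interval -0.10 to 0.23). Cyp4b1 had a log2 fold change of -0.37 ± 0.20 (standard error; edgeR adjusted p = 0.232).

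None of the 23 family 2 genes passed the threshold in either direction (edgeR). An unadjusted p under 0.05 was seen for 4 of them, against 32.5% of all genes tested. As alternatives, DESeq2 called 2, Cyp2a5 and Cyp2j5, and limma voom called Cyp2j5. Of the 7 most abundant family 2 genes by RPKM, Cyp2a5 had the largest fold change (log2 0.63) and Cyp2d9, a male-biased steroid hydroxylase, had a log2 fold change of 0.27 ± 0.14 (standard error; edgeR adjusted p = 0.211). Cyp2e1 had 8680, 7956, 8369 and 7478 CPM in antiCD47 1 to 4, against 7881, 7826, 8243 and 7497 CPM in IgG 1 to 4. The groups overlapped throughout, and the log2 fold change was 0.05 with a 95% interval from -0.14 to 0.23 (edgeR adjusted p = 0.727). Cyp2d26, Cyp2a12 and Cyp2d22 had log2 fold changes of 0.02, -0.04 and -0.08, with all 95% intervals between -0.23 and 0.22. Cyp2f2, a periportal enzyme that activates naphthalene, had a log2 fold change of 0.12 ± 0.14 (standard error; edgeR adjusted p = 0.607).

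Cyp2j5, an arachidonic acid epoxygenase of liver and kidney, had 553, 555, 537 and 503 CPM in antiCD47 1 to 4, against 485, 460, 450 and 451 CPM in IgG 1 to 4. All antiCD47 libraries were above all IgG libraries by a small margin. The log2 fold change was 0.22 ± 0.07 (SE; 95% interval 0.07 to 0.36; edgeR adjusted p = 0.0585), and with library totals alone as the scaling it was 0.03. Its relatives Cyp2j6 (log2 -0.19, edgeR adjusted p = 0.251) and Cyp2j9 (-0.17, edgeR adjusted p = 0.548) did not pass. Among the Cyp2d genes, whose enzymes act on many drugs and steroids, Cyp2d40 had 50.3, 46.4, 48.8 and 52.6 CPM in antiCD47 1 to 4, against 47.1, 43.7, 30.3 and 38.3 CPM in IgG 1 to 4. Its groups overlapped through IgG 1 (log2 fold change 0.31 ± 0.12, SE; edgeR adjusted p = 0.112).

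Cyp2a5, the coumarin and nicotine hydroxylase of mouse liver, and its close copy Cyp2a4, a steroid hydroxylase higher in female mice, had fold changes of opposite sign, and neither passed. Cyp2a5 had 1034, 1687, 1201 and 1207 CPM in antiCD47 1 to 4, against 847, 1130, 618 and 720 CPM in IgG 1 to 4. Only IgG 2 entered the antiCD47 range, and the number 2 library was the highest of each group. The log2 fold change of Cyp2a5 was 0.63 ± 0.20 (SE; 95% interval 0.18 to 1.08; edgeR adjusted p = 0.0687). Cyp2a4 had 12.9, 6.71, 23.8 and 17.3 CPM in antiCD47 1 to 4, against 12.8, 63.6, 14.0 and 17.3 CPM in IgG 1 to 4. The IgG 2 library stood far above the rest and set the sign of the fold change, which was -0.83 ± 0.55 (SE; edgeR adjusted p = 0.322) with all libraries and 0.05 without IgG 2. Per length, Cyp2a5 averaged 637 ± 139.9 RPKM in antiCD47 and 412 ± 110.0 RPKM in IgG, while Cyp2a4 averaged 8.73 ± 4.14 RPKM in antiCD47 and 15.5 ± 14.1 RPKM in IgG (SD, n = 4 each).

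The promoters of this pair are shown because they are nearly identical although the transcripts differ in level many times over. Over 249 aligned bases upstream of the start they have 98.4% identity, and capitals mark the 4 bases that differ. Both are from RefSeq (GRCm38.p6), on the plus strand, Cyp2a5 at chr7:26835089-26835337 and Cyp2a4 at chr7:26306943-26307191.
Cyp2a5: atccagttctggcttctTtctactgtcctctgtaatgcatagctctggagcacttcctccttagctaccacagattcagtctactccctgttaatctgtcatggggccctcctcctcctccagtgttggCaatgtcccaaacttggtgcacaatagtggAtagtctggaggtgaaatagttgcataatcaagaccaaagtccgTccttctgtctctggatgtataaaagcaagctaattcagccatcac
Cyp2a4: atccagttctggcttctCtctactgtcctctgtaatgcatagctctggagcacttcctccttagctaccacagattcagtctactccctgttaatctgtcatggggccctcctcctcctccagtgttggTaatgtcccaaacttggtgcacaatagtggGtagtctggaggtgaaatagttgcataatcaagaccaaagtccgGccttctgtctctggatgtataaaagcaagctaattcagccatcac
The transcripts are also alike, with 54.6% of the 31-base words of Cyp2a5 found in other genes and 58.1% of those of Cyp2a4, mostly in each other. Counts of this pair are therefore less certain than those of Cyp2a12, which shares 34.5% of its words.

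Cyp2b9 and Cyp2b13, like Cyp2a4 higher in female than in male mouse liver, were highest in antiCD47 3 within antiCD47 and in IgG 2 within IgG, and neither passed (edgeR). Cyp2b9 had 21.3, 37.9, 72.8 and 23.6 CPM in antiCD47 1 to 4, against 12.8, 35.8, 21.2 and 16.4 CPM in IgG 1 to 4. Its highest values were in antiCD47 3 and antiCD47 2, and within IgG in IgG 2 (log2 fold change 0.85 ± 0.42, SE; edgeR adjusted p = 0.190). Cyp2b13 had 0.708, 1.39, 3.03 and 1.20 CPM in antiCD47 1 to 4, against 0.631, 2.67, 0.559 and 0.761 CPM in IgG 1 to 4. It was again highest in antiCD47 3 and IgG 2 (log2 fold change 0.45 ± 0.58, SE; edgeR adjusted p = 0.620). The summed level of the 8 listed female-biased P450 genes, of which 4 were tested and none passed (edgeR), was 113 CPM in antiCD47 3 and 116 CPM in IgG 2, and 38.7 to 55.8 CPM in the other 6 libraries. The 4 that were too low to test, Cyp3a16, Cyp3a41a, Cyp3a41b and Cyp3a44, had 8, 38, 16 and 52 counts over all libraries, and none of them was highest in antiCD47 3 within antiCD47. The 4 listed male-biased P450 genes (Cyp2d9, Cyp4a12a, Cyp4a12b and Cyp2u1) summed to 1233 to 1654 CPM in antiCD47 and 1004 to 1469 CPM in IgG, and none passed (edgeR). Neither list held a gene with an unadjusted p under 0.05, against 32.5% of all genes tested, and DESeq2 called 0 in both. Cyp2b10, the classical target of the receptor CAR, was low in every library, at 0.362 to 2.40 CPM in antiCD47 and 0.637 to 2.29 CPM in IgG (log2 fold change -0.24 ± 0.55, SE; edgeR adjusted p = 0.791).

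**Figure D4:**
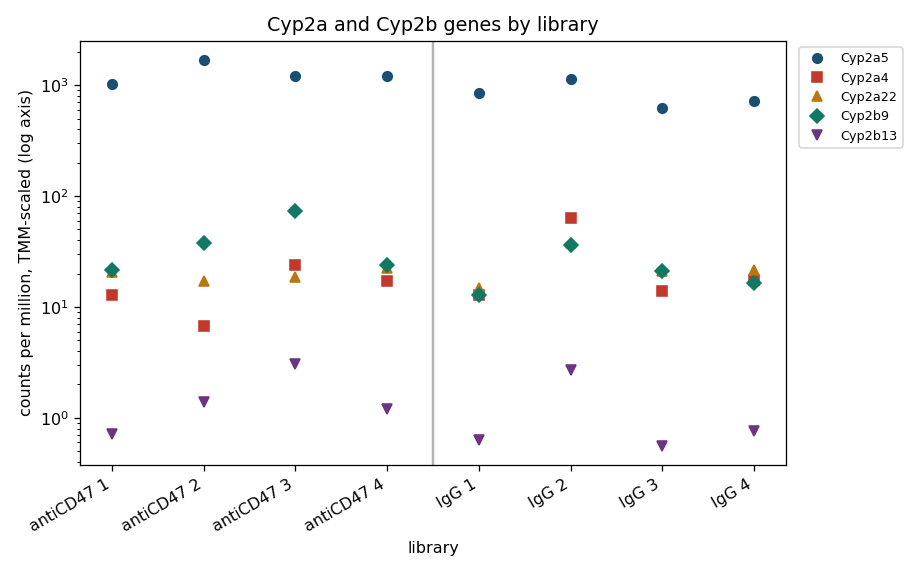
CPM (log axis) of Cyp2a5, Cyp2a4, Cyp2a22, Cyp2b9 and Cyp2b13 in each library, antiCD47 left of IgG. Cyp2a4, Cyp2b9 and Cyp2b13 are highest in antiCD47 3 within antiCD47 and in IgG 2 within IgG, while Cyp2a5 peaks in antiCD47 2 and in IgG 2.

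Among the remaining family 2 genes, Cyp2r1, the liver vitamin D hydroxylase, had a log2 fold change of 0.19 ± 0.09 (standard error; edgeR adjusted p = 0.197). Cyp2s1, a P450 mostly of epithelia outside the liver, was covered by 16 to 32 counts per antiCD47 library and 29 to 59 per IgG library (log2 fold change -0.80 ± 0.33, SE; edgeR adjusted p = 0.133). Cyp2u1, a fatty acid hydroxylase, Cyp2d12 and the olfactory gene Cyp2g1 were at most 11.0 CPM in every library and did not pass (edgeR adjusted p = 0.752, 0.900 and 0.628).

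Family 1 holds targets of the aryl hydrocarbon receptor, and its 2 Cyp1a genes differed in sign, neither past the threshold (edgeR). Both had an unadjusted p under 0.05, as did 32.5% of all genes tested, and DESeq2 called neither. Cyp1a2, a pericentral enzyme that oxidises caffeine and aromatic amines, had 201, 282, 178 and 204 CPM in antiCD47 1 to 4, against 170, 206, 103 and 114 CPM in IgG 1 to 4. The groups overlapped through IgG 2 (log2 fold change 0.54 ± 0.22, SE; 95% interval 0.04 to 1.04; edgeR adjusted p = 0.128). Cyp1a1, which is low in livers not exposed to its inducers, had 0.315, 0.503, 0.205 and 0.463 CPM in antiCD47 1 to 4, against 0.820, 0.455, 0.633 and 0.743 CPM in IgG 1 to 4. It overlapped as well through IgG 2 (log2 fold change -0.83 ± 0.33, SE; edgeR adjusted p = 0.115). Cyp1b1, expressed mainly outside hepatocytes, had a log2 fold change of -0.26 ± 0.18 (standard error; edgeR adjusted p = 0.344). The other listed AHR targets, Tiparp and Nqo1, did not pass (log2 -0.04 and -0.28), and Ahrr was too low to test.

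In the other families no gene passed (edgeR), and DESeq2 called none. An unadjusted p under 0.05 was seen for 3 of 8, against 32.5% of all genes tested. The retinoic acid hydroxylases Cyp26b1 and Cyp26a1 had fold changes of opposite sign. Cyp26b1 had 5.51, 11.2, 13.2 and 13.0 CPM in antiCD47 1 to 4, against 4.54, 6.09, 6.40 and 9.20 CPM in IgG 1 to 4. In antiCD47 1 it lay within the IgG range and in the other 3 antiCD47 libraries above it (log2 fold change 0.71 ± 0.28, SE; edgeR adjusted p = 0.120). Cyp26a1 had 5.06, 3.58, 3.99 and 5.26 CPM in antiCD47 1 to 4, against 4.90, 4.64, 6.94 and 9.11 CPM in IgG 1 to 4, with overlap (log2 fold change -0.52 ± 0.23, SE; edgeR adjusted p = 0.145). Stellate cells are a known site of retinoid storage, and 3 of the 7 listed stellate markers fell, against 5.4% of all genes tested. Those 3 were the collagen genes Col1a1, Col1a2 and Col3a1, while Lrat, Reln, Des and Dcn did not pass (log2 -0.04, 0.17, 0.18 and -0.12). The summed stellate markers were at 530 to 731 CPM in antiCD47 and 810 to 1144 CPM in IgG. Within that sum Col3a1 averaged 128 CPM in antiCD47 and 290 CPM in IgG, and Lrat 40.2 and 41.3 CPM. The part of the stellate markers in the Cyp26 values was not tested.

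Cyp39a1, an oxysterol hydroxylase of bile acid synthesis, had 25.3, 80.6, 28.7 and 45.7 CPM in antiCD47 1 to 4, against 33.7, 35.1, 35.5 and 34.1 CPM in IgG 1 to 4. The IgG libraries were close together, while antiCD47 ranged both below and above them (log2 fold change 0.38 ± 0.31, SE; edgeR adjusted p = 0.417). Cyp21a1, the adrenal steroid hydroxylase, had 3.86, 0.584, 1.43 and 0.973 CPM in antiCD47 1 to 4, against 4.39, 2.56, 3.54 and 1.87 CPM in IgG 1 to 4, with overlap through antiCD47 1 (log2 fold change -0.84 ± 0.51, SE; edgeR adjusted p = 0.279). The pseudogene Cyp21a2-ps had a log2 fold change of 0.86 ± 0.32 (standard error; edgeR adjusted p = 0.105), but 53.9% of its 31-base words occur in Cyp21a1, so reads may be split uncertainly between them. Cyp17a1 of androgen synthesis, the brain cholesterol hydroxylase Cyp46a1 and Cyp20a1, whose substrate is not settled, had log2 fold changes of -0.04, -0.07 and -0.11, and none passed (edgeR adjusted p = 0.888, 0.841 and 0.382).

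No listed gene that serves P450 enzymes passed, while among the genes that drive them Hnf4a did. Over all genes tested, 10.8% passed, 32.5% had an unadjusted p under 0.05 and 19.6% had groups that did not overlap. DESeq2 called 3145 genes in all. Of 8 electron donors and helpers, among them Por, Cyb5a and Fdx1, none passed (edgeR; 2 had an unadjusted p under 0.05, and DESeq2 called 0), with a median log2 fold change of 0.02. Por itself had 763, 770, 767 and 733 CPM in antiCD47 1 to 4, against 703, 774, 678 and 665 CPM in IgG 1 to 4 (log2 fold change 0.11 ± 0.07, SE; edgeR adjusted p = 0.330). Of the 8 enzymes of heme synthesis none passed (edgeR; 3 had an unadjusted p under 0.05, and DESeq2 called 2), with a median of -0.03, although Cpox was higher and Ppox lower in all 4 antiCD47 libraries (edgeR adjusted p = 0.0697 and 0.0518). Among receptors and factors that drive hepatic P450 genes, Hnf4a had 696, 941, 764 and 609 CPM in antiCD47 1 to 4, against 481, 609, 499 and 428 CPM in IgG 1 to 4 (log2 fold change 0.58 ± 0.15, SE; edgeR adjusted p = 0.0382), and it rose. The receptor genes Ahr, Nr1i2 (PXR), Nr1i3 (CAR) and Ppara did not pass (log2 0.23, -0.22, -0.12 and 0.02). Of 5 further targets of CAR or PXR none passed (edgeR; 4 had an unadjusted p under 0.05, and DESeq2 called 4). Ces2a and Gstm1 were higher and Abcc2 lower in all 4 antiCD47 libraries (edgeR adjusted p = 0.0610, 0.0521 and 0.0569). Abcb1a had a negative fold change and Ugt1a1 a positive one, both with overlap (log2 -0.51 and 0.12; edgeR adjusted p = 0.0823 and 0.318).

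Acute phase genes and markers of several other cell types changed in the same libraries. For all genes tested the shares were 10.8% past the threshold and 32.5% at an unadjusted p under 0.05. All 13 listed acute phase genes rose, with a median log2 fold change of 1.83 and summed levels of 19560 to 37030 CPM in antiCD47 and 7760 to 15740 CPM in IgG. Of the 8 Kupffer cell markers 7 rose (343 to 633 CPM summed in antiCD47, 172 to 319 in IgG), and of the 7 cholangiocyte markers 6 fell (19.4 to 33.2 CPM summed in antiCD47, 47.5 to 62.1 in IgG). None of the 6 hepatocyte markers passed (edgeR; 2 had an unadjusted p under 0.05, and DESeq2 called 1), with a median of 0.20, nor did any of the 5 endothelial markers (1 and 0), with a median of -0.12. Of the 7 pericentral hepatocyte markers 1 rose, Tbx3 (log2 1.12 ± 0.26, SE; edgeR adjusted p = 0.0312). In that list 4 had an unadjusted p under 0.05 (Tbx3, Glul, Oat and Slc1a2, all with positive fold changes), and DESeq2 called 2. The list median was 0.30, with negative values for Lect2 and Gulo. Of the 6 periportal markers Ctsc, which is also abundant in immune cells, rose and Hal fell (log2 0.84 and -0.43; edgeR adjusted p = 0.0174 and 0.0176). Among these 6, 3 had an unadjusted p under 0.05, DESeq2 called 2, and the median was -0.12. The part of these genes in the P450 values was not tested.

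The calls on the 3 changed P450 genes depended on which single library was left out. Cyp4f17 lost its call without antiCD47 3, IgG 1, IgG 3 or IgG 4 (edgeR adjusted p = 0.0609, 0.0501, 0.0541 and 0.0583), Cyp3a13 lost it without antiCD47 2, antiCD47 3, IgG 1, IgG 3 or IgG 4 (edgeR adjusted p = 0.0668 to 0.101), and Cyp3a57 kept it only where antiCD47 1 was left out. In these fits the log2 fold changes stayed between 0.49 and 0.58 for Cyp4f17, 0.49 and 0.74 for Cyp3a13, and -2.27 and -1.42 for Cyp3a57. The number of calls over all genes, 1678 in the reported fit, fell as well where these calls were lost. It was 21 without antiCD47 3, 174 without IgG 1, 92 without IgG 3, 2 without IgG 4 and 756 without antiCD47 2. Where Cyp4f17 lost its call, its unadjusted p was 0.00034 to 0.00060 (edgeR). Without antiCD47 1 alone, 10 of the 52 genes passed and 3630 genes in all. Without both antiCD47 1 and IgG 2, a choice made after seeing the data, 15 passed and 3314 genes in all.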

How the data were processed

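Polyadenylated RNA of whole liver was sequenced as Illumina TruSeq libraries, per the labels' protocols. The authors deposited estimated counts per Ensembl gene, whole numbers with no normalization; Salmon 1.3.0, DESeq2 1.32.0 and GRCm39 are named in the submitters' processing notes with no role. Per the file headers, the second table that the authors deposited gives, for each gene, an average signal (baseMean), log2 fold changes and their errors, p-values with and without adjustment, and a score used as a rank; its symbols, fold signs and adjusted p-values were used, and its folds may be shrunken.

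Of 54309 genes, 27899 had no count. Genes were filtered by filterByExpr, scaled by TMM and fitted by glmQLFit in edgeR 4.0.16 under R 4.3.3. antiCD47 was set against IgG by glmQLFTest (two-sided), p-values of the 15472 genes tested were adjusted by Benjamini and Hochberg's method, and the threshold was 0.05. The biological coefficient of variation was 16.7%. Standard errors came from the F statistic, and 95% intervals used the test's total degrees of freedom, residual plus prior. CPM and RPKM were computed from the deposited counts with these scalings. Transcript lengths and shared 31-base words came from GENCODE M21 on the older build GRCm38, which covers 51 of the 52 genes; promoters were those of RefSeq (39 of 52 genes), from which 250 bases before the start were read. Counting precision rests on 43691472 to 55477484 counts per library. Libraries of a group differed beyond sampling noise, with a chi-square per degree of freedom of at least 26.0 for every pair.

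The text names every gene past the threshold, in each family the 4 genes with the smallest p and the 4 with the highest CPM, and the most abundant or changed genes of the role lists; further family members were added with their values seen. The P450 genes and all lists were chosen with earlier results of these data known, so they are no independent support. Alternatives were other scalings, other low-count filters, DESeq2 1.42.0, limma 3.58.1 voom with and without quality weights, a robust fit, the replicate number as a block, each library left out, and a threshold of 0.1. The full result for the list of receptors and factors that drive P450 genes is not reported here. The test scripts were checked on simulated data. Figures were drawn with matplotlib 3.10.9.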

Additional observations from a re-analysis of the deposited data

Results flagged for a closer look

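In 8 of 104 groups of 4 libraries (52 genes, 2 groups), the highest or lowest library stood apart from the other 3 by more than Dixon's 95% critical value for the gap over the range. Chance flags about 1 group in 20, so a number of this size carries little weight. Of the 8, 3 were in IgG 2, 2 in IgG 1 and 1 each in antiCD47 1, antiCD47 2 and antiCD47 4.

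In antiCD47, Cyp3a11 was low in antiCD47 1 at 2748 CPM, with the others at 4112 to 4377 CPM. Cyp2d10 was high in antiCD47 2 at 517 CPM, with the others at 407 to 422 CPM. Cyp2g1 was high in antiCD47 4 at 0.648 CPM, with the others at 0.141 to 0.216 CPM.

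In IgG, Cyp2a4 was high in IgG 2 at 63.6 CPM, with the others at 12.8 to 17.3 CPM. Cyp2b13 was high in the same library at 2.67 CPM, with the others at 0.559 to 0.761 CPM, and so was Cyp2g1 at 0.582 CPM, with the others at 0.279 to 0.328 CPM. Cyp2d9, a steroid hydroxylase higher in male mice, was high in IgG 1 at 944 CPM, with the others at 647 to 683 CPM. Cyp4f18 was low in IgG 1 at 2.25 CPM, with the others at 3.24 to 3.34 CPM.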

How the results depend on the processing

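With 4 libraries per group, the number of P450 genes past the threshold, 3 in the reported fit, depended on the processing. It was 3 with DESeq2 size factors, upper quartile scaling, either other filter or the robust fit and 4 with limma voom, but 8 with library totals alone (2 higher and 6 lower), 7 with DESeq2, 14 with voom and quality weights, 8 at an adjusted p of 0.1, 15 without both antiCD47 1 and IgG 2 (chosen after seeing the data), and 0 to 10 when a single library was left out: 0 without antiCD47 3, IgG 1, IgG 3 or IgG 4 (edgeR; 11, 12, 8 and 8 at an unadjusted p under 0.05), 1 without antiCD47 2 and 10 without antiCD47 1. The genes past the threshold over the whole table, 1678 in the reported fit, numbered 3581 with library totals alone (428 higher and 3153 lower), 3145 with DESeq2, 4331 with quality weights, 3574 at an adjusted p of 0.1, 3314 without both libraries, and 2 (without IgG 4) to 3630 (without antiCD47 1) with single libraries left out; upper quartile scaling gave 634 higher and 969 lower. Library totals moved the median log2 fold change of all genes to -0.19 and that of the P450 genes to -0.17, so signs near 0 are relative to the scaling. With the replicate number as a block 5 P450 genes passed, all higher (Cyp1a2, Cyp26b1, Cyp2a5, Cyp3a13 and Cyp4f17), and 2425 genes in all. The deviations of same-numbered libraries correlated by -0.02 to 0.16. Such values cannot settle whether the numbers mark pairs, and the labels do not say. Over 19 alternatives Cyp4f17 kept its call in 15 (adjusted p = 9.38e-06 to 0.0609), Cyp3a13 in 14 (0.00184 to 0.101) and Cyp3a57 in 11 (0.00832 to 0.120), all 3 with the same sign. Signs turned, none of them past the threshold in the reported fit, with library totals for 11 of the 52 P450 genes: Cyp2f2 (-0.070), Cyp2e1 (-0.14), Cyp2u1 (-0.078), Cyp2d26 (-0.16), Cyp3a25 (-0.046), Cyp3a11 (-0.020), Cyp3a59 (-0.17), Cyp4v3 (-0.12), Cyp2d10 (-0.060), Cyp2d12 (-0.10) and Cyp4f13 (-0.17). With upper quartile scaling 4 turned: Cyp2e1 (-0.016), Cyp2d26 (-0.040), Cyp3a59 (-0.044) and Cyp4f13 (-0.043). They also turned with limma voom for Cyp3a59 (-0.0014), with quality weights for Cyp2u1 (-0.13), Cyp39a1 (-0.038), Cyp2b10 (0.041) and Cyp17a1 (0.082), and without both libraries for Cyp2a4 (0.11), Cyp4a12b (-0.12), Cyp2a22 (0.028), Cyp2g1 (0.020), Cyp2a12 (0.023), Cyp4a31 (0.037) and Cyp17a1 (0.035). With single libraries left out fold changes whose sign turned ranged from -1.13 to 0.046 for Cyp2a4, -0.075 to 1.28 for Cyp2b13, -0.027 to 0.27 for Cyp2u1, -0.023 to 0.10 for Cyp2d26, -0.14 to 0.15 for Cyp3a59, -0.028 to 0.47 for Cyp4a12b, -0.058 to 0.58 for Cyp39a1, -0.21 to 0.10 for Cyp46a1, -0.43 to 0.047 for Cyp2a22, -0.083 to 0.0040 for Cyp2d13, -0.086 to 0.021 for Cyp2a12, -0.74 to 0.072 for Cyp2b10, -0.12 to 0.23 for Cyp2d12, -0.33 to 0.079 for Cyp4a31, -0.10 to 0.058 for Cyp4a32 and -0.12 to 0.11 for Cyp17a1. The turns under library totals and upper quartile scaling follow the shift of those scalings; the cause of the others was not tested. Depth limits Cyp3a57, Cyp4f39, Cyp2g1 and Cyp2d12, each with at most 146 counts over all libraries.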

Other observations

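The count table holds 61 further P450-named genes that are not in the authors' comparison table. Of these 25 had no count in any library, 3 had 100 or more counts over all libraries, and those 3, all Cyp2d pseudogenes, were the ones abundant enough to be tested. Cyp2d37-ps was at 11.8 ± 2.23 CPM in antiCD47 and 15.7 ± 1.72 CPM in IgG (SD, n = 4 each), a log2 fold change of -0.41 ± 0.13 (standard error; edgeR adjusted p = 0.0763). Cyp2d38-ps was at 3.19 ± 0.416 CPM in antiCD47 and 4.06 ± 0.429 CPM in IgG (SD, n = 4 each), a log2 fold change of -0.35 ± 0.14 (standard error; edgeR adjusted p = 0.113). Cyp2d41-ps was at 1.19 ± 0.435 CPM in antiCD47 and 1.13 ± 0.240 CPM in IgG (SD, n = 4 each), a log2 fold change of 0.07 ± 0.28 (standard error; edgeR adjusted p = 0.881). Reads of these pseudogenes may be split uncertainly with the coding Cyp2d genes, whose own log2 fold changes ran from -0.08 for Cyp2d22 to 0.31 for Cyp2d40. Among P450 genes of steroid hormone, vitamin D and retinoic acid metabolism, Cyp19a1, Cyp24a1 and Cyp26c1 had no count in any library, and Cyp11a1, Cyp11b1, Cyp11b2 and Cyp27b1 had 8, 1, 3 and 20 counts over all 8 libraries.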
